A study of Mus musculus with 16 samples.

Results

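Cyclic nucleotide phosphodiesterases are the enzymes that break down cAMP and cGMP, and 10 of their genes were followed across hearts with and without CAP2, an actin-binding protein of the cyclase-associated family. The genes are Pde11a, Pde1a, Pde1c, Pde2a, Pde3a, Pde3b, Pde4b, Pde4d, Pde5a and Pde8a, taken by symbol from 38087 gene rows of experiment A and 54232 rows of experiment B. The set was selected on the CPM and fold change of Pde11a, which was much lower without CAP2 in experiment A, so that difference is described here and not tested. Experiment A held hearts of 86-week-old C57BL/6 females, 3 wild type and 3 of the genotype CAP2 -/-, in which both copies of Cap2 are disrupted in the whole animal as far as the label says. Experiment B held hearts of 13-week-old C57BL/6 mice that all carried Loxp/Loxp at both copies of the gene. Its 5 controls were Cre- (3 females and 2 males), and its 4 Cre+ hearts (3 females and 1 male) came from mice carrying Cre under Myh6, a promoter active in cardiomyocytes. Cre and the loss of Cap2 came together there, and other cells of the heart keep an intact gene. RNA of the whole heart was measured, so fewer cells of a type and less RNA per cell cannot be told apart.

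In heart muscle, adrenaline acting on beta receptors raises cAMP, which activates protein kinase A and strengthens and speeds the beat, whereas nitric oxide and natriuretic peptides raise cGMP, which acts through protein kinase G. Phosphodiesterases end both signals and keep them in small compartments, since each family differs in substrate, in regulation and in the partner proteins that hold it in place. PDE11A hydrolyses both nucleotides. It is the family described last and is best known from brain, prostate and endocrine tissue rather than from the heart.

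Estimated counts per library ran from 10750175 to 27440478 in experiment A. Cap2 itself stood at 197.4, 216.8 and 228.4 CPM, counts scaled to a common library total, in the wild-type hearts and at 8.36, 16.1 and 12.0 CPM in the CAP2 -/- hearts. In experiment B, Cap2 had 33 to 87 normalized counts in the Cre+ hearts, and every control was higher, with a median of 342 and a highest value of 878. Each library of both experiments thus matched its label. Cardiomyocyte markers (Myh6, Tnnt2, Tnni3, Myl2, Ryr2 and Pln) summed to 68010 to 74170 CPM in wild-type and 60600 to 72770 CPM in CAP2 -/- hearts, and none of the 61 fixed marker genes of 10 cell types was at 0 in all libraries of an experiment. The libraries of experiment B were less even: transcripts of the mitochondrial genome took 30.4% to 69.5% of the values in controls and 23.0% to 52.7% in Cre+ hearts, with control 4 the lowest and control 3 the highest of the controls.

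Pde11a spans chr2:75989141-76338774 (mm10, minus strand), and GENCODE M21 gives its transcript Pde11a-201 20 exons and 4189 bases. The fully coding exon with the most wild-type counts, exon 11, is shown because it lies inside the gene, away from both ends. It covers chr2:76075937-76076083 (minus strand), and all of its 147 bases are coding.
Pde11a exon 11: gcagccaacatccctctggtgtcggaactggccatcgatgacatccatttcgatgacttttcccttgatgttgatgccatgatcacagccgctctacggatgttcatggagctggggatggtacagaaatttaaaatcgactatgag
The sequence upstream of the gene is shown because the study concerns MRTF and SRF, a co-activator and the transcription factor that binds CArG boxes. The RefSeq table used (GRCm38.p6) gives 1 start site for Pde11a, and the window of 250 bases before to 50 after it covers chr2:76338889-76339188 (minus strand). Capitals mark the GC boxes (GGGCGG).
Pde11a promoter: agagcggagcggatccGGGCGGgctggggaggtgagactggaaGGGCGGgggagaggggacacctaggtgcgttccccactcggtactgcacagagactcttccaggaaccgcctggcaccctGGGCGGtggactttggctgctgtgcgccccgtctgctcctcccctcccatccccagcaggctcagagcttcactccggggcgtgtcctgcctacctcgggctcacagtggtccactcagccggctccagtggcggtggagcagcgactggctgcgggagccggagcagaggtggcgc

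Of the 10 genes, 8 had promoter windows in the RefSeq table, 20 windows in all. Pde3a and Pde3b had none. Both strands of each window were searched. A CArG box was found in none of the 20 windows, against 1.63% of 32817 mouse promoters of the same length. The full cAMP response element TGACGTCA was likewise in none, against 1.79% of all promoters, and the shorter TGACG, which that element contains, was in 4 windows (1 each of Pde1a, Pde2a, Pde4b and Pde8a), against 20.8%. GGGCGG was in 4 windows (1 each of Pde11a, Pde2a, Pde5a and Pde8a), against 35.6%. TATAAA was in 2 windows, both of Pde1a, against 13.6%. These matches describe letters only.

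Pde11a was low but present in every wild-type heart of experiment A and close to absent without CAP2. Its level was 5.64, 6.81 and 6.15 CPM in the wild-type libraries and 0.305, 0.328 and 0.381 CPM in the CAP2 -/- libraries. The highest CAP2 -/- value lay far below the lowest wild-type value, and the 3 libraries of each genotype were close to each other. The means were 6.20 ± 0.588 CPM and 0.338 ± 0.0388 CPM (SD, n = 3 each), so that 5.45% of the wild-type mean was left. On the log2 scale the difference was -4.14 (edgeR). These levels rest on 156.4, 73.9 and 105.1 estimated counts in the wild-type libraries and 3.37, 4.58 and 5.99 in the CAP2 -/- libraries. The rule used this contrast, so no test is given for it. The log2 difference of Cap2, the disrupted gene, was of about the same size at -4.13.

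**Figure D1:**
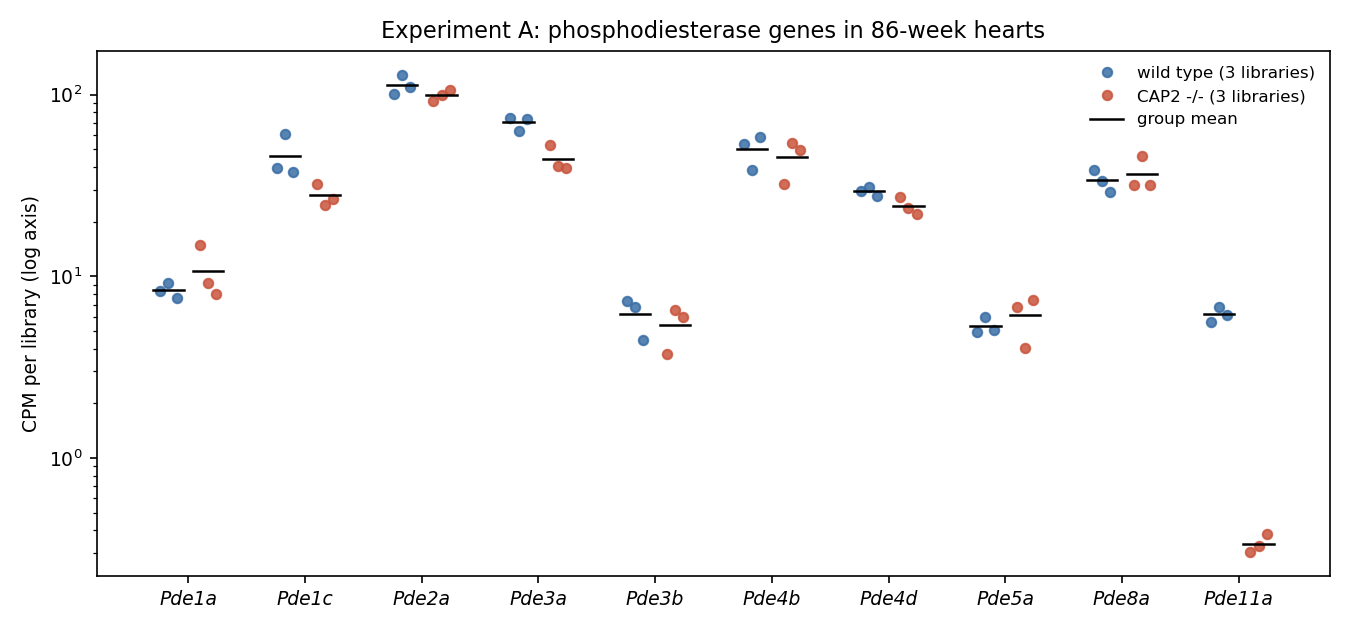
Levels of the 10 phosphodiesterase genes in experiment A, in CPM on a log axis. Each point is 1 library (3 wild type, 3 CAP2 -/-) and each bar a group mean; Pde11a drops from 5.64 to 6.81 CPM to 0.305 to 0.381 CPM, while the groups of the other genes lie close together or overlap.

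The lower level held along the whole gene. Experiment A lists 22 separate exonic blocks for Pde11a over 3 transcripts, of which 20 had counts in wild type and 5 had any count in CAP2 -/-. Of the 11 blocks with at least 5 wild-type counts summed over the 3 libraries, 6 had no CAP2 -/- count. These 11 were picked by their wild-type counts in a gene chosen for its fall, so this is a description and no further support. The other 11 blocks had fewer wild-type counts, too few to be read one by one. The first block (1079 bases) had 59.9 wild-type against 1.99 CAP2 -/- counts, and the last (2147 bases, at the 3' end) had 120.6 against 7. Exon 11, printed above, had 12, 6 and 19 counts in the wild-type libraries and 0, 0 and 2 in the CAP2 -/- libraries. In CPM, CAP2 -/- reached 4.13% of wild type in the first block, 4.45% over the 20 blocks between and 7.01% in the last. The few counts left in CAP2 -/- do not allow these shares to be told apart.

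**Figure D2:**
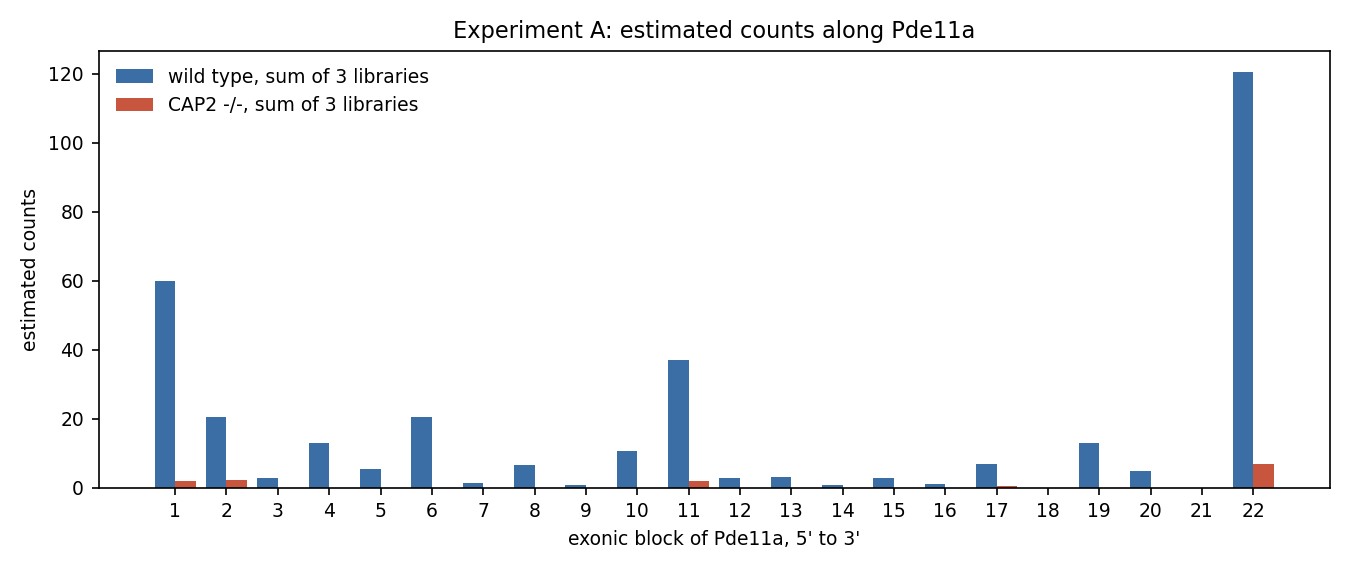
Estimated counts in the 22 exonic blocks of Pde11a in experiment A, numbered from the 5' to the 3' end, as sums over 3 wild-type and 3 CAP2 -/- libraries (bars, axis from 0). Wild-type counts reach 59.9 in block 1, 37 in block 11 and 120.6 in block 22, and no CAP2 -/- block exceeds 7.

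The genes on either side of Pde11a were not called. An adjusted p under 0.05 over all genes tested is termed a call here. The 3 nearest tested genes below it on the chromosome, Ttc30a1, Ttc30a2 and Ttc30b, which encode parts of the transport machinery of cilia, had log2 differences of 0.07, -0.34 and -0.14. Those above it were Rbm45, encoding an RNA-binding protein, at -0.06, Osbpl6, encoding a lipid-binding protein, at -0.43 and Prkra, encoding an activator of the RNA-dependent kinase, at -0.05. The smallest adjusted p among these 6 was 0.356 (edgeR), and none of the 6 overlaps Pde11a.

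The 5 genes whose pattern over the 6 libraries was most like that of Pde11a were Cap2, Pex11a, Fbp2, Gna12 and Cpt2, with Pearson's r of 0.992 to 0.995 on log2 CPM. The ranking covered 12966 genes with a mean of at least 1 CPM, of which 79 had an r over 0.95. Genes with predicted (Gm), Rik or accession-like names were left out of it. All 6 libraries share the genotype contrast, so any gene with a clean difference between genotypes ranks high, and r is given as a description. Fbp2, a muscle fructose bisphosphatase, was at 40.9, 43.5 and 41.0 CPM in wild type and at 20.7, 19.1 and 19.5 CPM in CAP2 -/-. Cpt2, which acts in the mitochondrial uptake of long-chain fatty acids, was at 424, 410 and 415 CPM in wild type and at 292, 293 and 309 CPM in CAP2 -/-.

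Per kilobase of exon, Pde11a ranked low among the 10 genes in wild-type hearts of experiment A. The order of the mean levels was Pde2a at 26.9, Pde3a at 16.7, Pde8a at 8.35, Pde4b at 4.74, Pde1c at 3.58, Pde4d at 2.45, Pde1a at 1.39, Pde11a at 1.19, Pde3b at 0.897 and Pde5a at 0.792 CPM per kilobase. Neighbours in this order had separate ranges over the 3 libraries except Pde4b and Pde1c, Pde1a and Pde11a, and Pde3b and Pde5a, whose ranges overlapped. The file carries a further row under the symbol Pde4d, ENSMUSG00000074661 at chr13:109954109-109955963, at 10.1 ± 2.19 CPM in wild type and 10.9 ± 2.6 CPM in CAP2 -/- (SD, n = 3 each). It was kept apart from the Pde4d gene row.

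Of the 9 other members tested in experiment A, 1 was called lower (edgeR), where 1.35% of 16297 genes were called and 0.509% were called lower, and 2 had an unadjusted p under 0.05, where 10.4% of all genes did. The members were chosen with results of these data known. The one called was Pde3a, whose product is a cAMP-hydrolysing enzyme that cGMP inhibits and the target of the heart drug milrinone. It stood at 74.6, 63.3 and 73.3 CPM in wild type and at 52.7, 40.6 and 39.7 CPM in CAP2 -/-. All 3 CAP2 -/- values lay below all wild-type values, which also held for Pde1c and Pde4d, 3 of the 9 in all, while 15.6% of all genes had groups apart in either direction. Pde3a fell by 0.67 on the log2 scale (standard error 0.14, adjusted p = 0.0178, edgeR), from 70.4 ± 6.23 to 44.3 ± 7.25 CPM (SD, n = 3 each). The call was lost without wild-type library 1 (adjusted p = 0.0712, edgeR), wild-type library 3 (0.0856), CAP2 -/- library 2 (0.117) or CAP2 -/- library 3 (0.127). The other 7 of the 11 alternative fits, DESeq2 among them (adjusted p = 0.00104), kept the call of Pde3a. Its relative Pde3b, with the same kind of enzyme activity and better known from fat and liver, had 7.31, 6.78 and 4.46 CPM in wild type and 3.76, 6.52 and 6.01 CPM in CAP2 -/-, so the groups overlapped (adjusted p = 0.884, edgeR).

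Pde1c and Pde1a encode enzymes that calcium and calmodulin switch on. Pde1c was at 39.6, 60.4 and 37.6 CPM in wild type and at 32.4, 24.7 and 26.6 CPM in CAP2 -/-. The groups did not overlap, but the log2 difference of -0.71 (standard error 0.18) did not pass the test (adjusted p = 0.0761, edgeR). DESeq2 on the same counts called it (adjusted p = 0.0148) among 2.36% of the genes it tested, as did edgeR without the filter on low counts (adjusted p = 0.000125) and edgeR without CAP2 -/- library 1 (adjusted p = 0.0469). The other 8 of the 11 alternative fits did not call it. Without wild-type library 2, the highest, the log2 difference was -0.47 (adjusted p = 0.272, edgeR). Without CAP2 -/- library 2 or 3 the adjusted p was 0.305 or 0.289 (edgeR). The authors' deposited table gives it a log2 fold change of -0.72 and an adjusted p of 0.0114. Pde1a was at 8.34, 9.16 and 7.59 CPM in wild type and at 14.9, 9.25 and 8.04 CPM in CAP2 -/-. A single CAP2 -/- library lay above the rest (adjusted p = 0.678, edgeR).

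The cAMP-specific PDE4 genes, targets of rolipram, gave no call in experiment A. Pde4d, whose product has been found on the ryanodine receptor and near beta receptors, was at 29.5, 31.1 and 27.5 CPM in wild type and at 27.2, 23.9 and 21.9 CPM in CAP2 -/-. The groups lay side by side without overlap, and the log2 difference was -0.27 (standard error 0.14, adjusted p = 0.537, edgeR). Pde4b, encoding the form linked to L-type calcium channels, ranged from 38.5 to 58.2 CPM in wild type and from 32.4 to 54.4 CPM in CAP2 -/- (adjusted p = 0.884, edgeR). Pde8a, encoding another cAMP-specific enzyme, one that the common inhibitor IBMX does not block, ranged from 29.3 to 38.6 CPM in wild type and from 31.7 to 46.2 CPM in CAP2 -/- (adjusted p = 0.883, edgeR).

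Pde2a and Pde5a encode enzymes with cGMP-binding regulatory domains. Pde2a, whose product degrades cAMP faster when cGMP is bound, was the highest of the 10 genes and ranged from 100.3 to 128.9 CPM in wild type and from 92.6 to 106.6 CPM in CAP2 -/- (log2 difference -0.19, standard error 0.12, adjusted p = 0.678, edgeR). Pde5a, encoding the cGMP-specific target of sildenafil, ranged from 4.97 to 5.95 CPM in wild type and from 4.03 to 7.46 CPM in CAP2 -/- (adjusted p = 0.876, edgeR). In both genes the groups overlapped. Over the 9 members other than Pde11a the median log2 difference was -0.19, beside 0.006 over all genes tested.

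Markers of other cells moved with genotype in experiment A. The 7 atrial markers summed to 120.6 to 165.4 CPM in wild type and to 3865 to 4605 CPM in CAP2 -/-, nearly all of it Nppa, which ventricles also switch on under load. Without Nppa the sums were 46.9 to 49.5 CPM and 55.7 to 62.3 CPM. Of the 7 genes 4 were higher and 1, Stard10, was lower without overlap, 2 were called higher (edgeR), and the atrial light chain Myl7 was at 1.10 to 1.32 CPM in wild type and 1.12 to 1.74 CPM in CAP2 -/-. Sums of the 6 fibroblast markers were 613 to 727 CPM and 813 to 986 CPM, with 2 of the 6 higher without overlap and none lower. Those of the 6 fat cell markers were 405 to 441 CPM and 447 to 612 CPM, and nearly all of that was Fabp4, which capillaries of the heart also express. Of the 6, 1 was higher and 3 were lower without overlap, and Adipoq was at 0.292 to 1.37 CPM in wild type and 0 to 0.272 CPM in CAP2 -/-. Sums of the 7 other lists overlapped between the genotypes. Of the 6 cardiomyocyte markers, 2 (Ryr2 and Tnni3) were lower without overlap, none was higher and none was called. Over all genes 15.6% had groups apart in either direction. The part of these cells in the levels of Pde11a, Pde3a and Pde1c was not tested.

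The difference that led to the choice was that of Pde11a in experiment A, but the members were chosen with results of experiment B known as well. Pde11a was at the edge of detection there even in controls. It had 2, 1, 0, 4 and 0 normalized counts in the controls and was listed at 0 in all 4 Cre+ libraries. Controls 3 and 5 were at 0 as well, so the groups overlapped. With a mean under 10 normalized counts it was not in the fit. An exact two-sided permutation test over the 9 libraries gave p = 0.238. All 4 Cre+ libraries were already at 0, so no fall could have given a smaller p with these values. The test therefore cannot decide whether Pde11a was lower. In a limma fit without the filter on low values its log2 difference was -0.95 with a standard error of 0.46 (adjusted p = 0.326). The depth behind these values is unknown, and a difference such as that of experiment A was not detectable at this level.

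**Figure D3:**
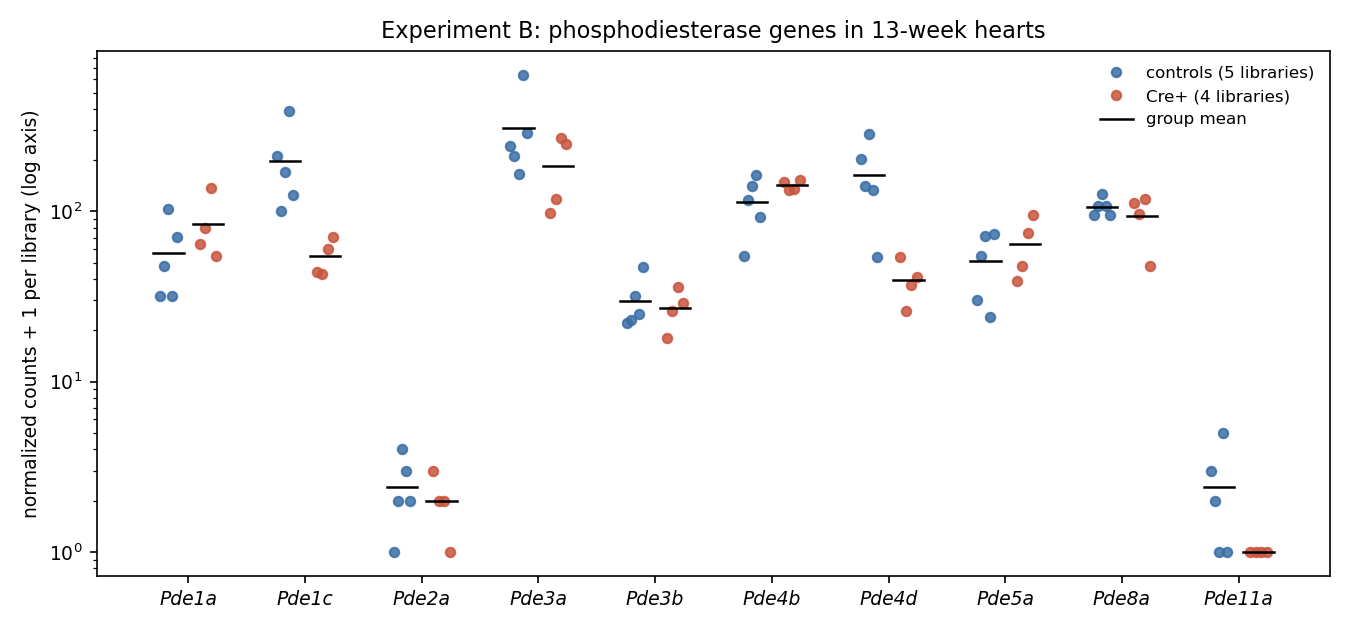
Levels of the 10 phosphodiesterase genes in experiment B, as normalized counts plus 1 on a log axis. Each point is 1 library (5 controls, 4 Cre+) and each bar a group mean; Pde11a and Pde2a sit between 0 and 4 normalized counts, and Pde1c and Pde4d have lower Cre+ than control means.

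Pde2a, the highest gene of experiment A, was also near 0 in experiment B, at 0, 1, 3, 2 and 1 normalized counts in the controls and 2, 1, 1 and 0 in the Cre+ libraries. Its identifier in experiment A, ENSMUSG00000030653, is named Gm45837 in experiment B, at 0 in every control and at 2, 0, 1 and 1 in the Cre+ libraries, and a newer identifier, ENSMUSG00000110195, bears the name Pde2a. The 2 gene models overlap on the same strand of chromosome 7. The level of Pde2a in experiment B is therefore uncertain, and it was not tested.

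Of the 8 members tested in experiment B, 2 were called (limma), both lower, where 1.88% of 12141 genes were called and 0.931% were called lower. The same 2 had an unadjusted p under 0.05, where 22.1% of all genes did. Pde1c had 210, 99, 389 and 124 normalized counts in controls 1, 2, 4 and 5, with control 3 between controls 5 and 1, and 43, 42, 59 and 70 in the Cre+ libraries. Every Cre+ library lay below every control, as for 4.79% of all genes. Pde1c fell by 1.65 on the log2(value + 1) scale (standard error 0.35, adjusted p = 0.0418, limma), with means of 198 ± 115 (SD, n = 5) and 53.5 ± 13.5 (SD, n = 4) normalized counts. Pde4d had 201, 141, 284, 133 and 53 normalized counts in the controls and 53, 25, 36 and 40 in the Cre+ libraries. Control 5 and Cre+ library 1 were level at 53, and the other controls were at least 133. Pde4d fell by 2.01 on the same scale (standard error 0.39, adjusted p = 0.0315, limma), with means of 162 ± 86.0 (SD, n = 5) and 38.5 ± 11.6 (SD, n = 4) normalized counts.

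Both calls depended on single libraries. That of Pde1c was lost without control 1 (adjusted p = 0.122, limma), control 2 (0.0652), control 3 (0.0922), Cre+ library 2 (0.125), Cre+ library 3 (0.102) or Cre+ library 4 (0.158), and with TMM scaling (0.0509). That of Pde4d was lost without control 1 (adjusted p = 0.108, limma), control 2 (0.0743), control 3 (0.0730), Cre+ library 2 (0.109) or Cre+ library 3 (0.109). Both genes kept a log2 difference of at most -1.41 in every alternative fit. With the share of mitochondrial values as a further term the adjusted p was 0.130 for Pde1c and 0.165 for Pde4d, and with the mean level of the atrial markers it was 0.737 and 0.445 (limma).

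The atrial markers summed to 109 to 10503 normalized counts in the controls and to 84047 to 175572 in the Cre+ libraries. Without Nppa the sums were 109 to 7992 in the controls, 671 in Cre+ library 1 and 20171, 44132 and 43918 in Cre+ libraries 2 to 4. In Cre+ library 1 Pde1c was at 43 normalized counts, within the range of the other Cre+ libraries, and Pde4d was at 53, above the other Cre+ libraries and level with control 5. With 1 such library nothing follows for a cause, and none was tested. Sums of the 9 other marker lists overlapped between the groups. Of their genes, 1 cardiomyocyte marker was called lower, and 1 fibroblast and 2 skeletal muscle markers were called higher (limma), beside 1.88% of all genes called. The atrial term of the fits, the mean log2 level of these markers with Nppa included, largely followed the group. It ran from 2.45 to 9.78 in the controls and from 7.31 to 12.7 in the Cre+ libraries. The fit with this term therefore cannot separate atrial tissue from genotype, and the part of atrial tissue in these results was not tested.

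The other 6 tested members were not called in experiment B. Pde3a, called in experiment A, had 240, 212, 636 and 288 normalized counts in controls 1, 2, 4 and 5, with control 3 lower, and 97, 118, 268 and 248 in the Cre+ libraries. The groups overlapped, and the log2 difference was -0.57 (standard error 0.34, adjusted p = 0.335, limma). Control 4 stood apart from the other controls. Pde8a was even across the controls, at 94 to 126 in the controls and at 111, 95, 117 and 47 in the Cre+ libraries (adjusted p = 0.440, limma). Pde4b had 54 to 162 normalized counts in the controls and 133 to 152 in the Cre+ libraries, so its Cre+ range lay inside the control range (adjusted p = 0.387, limma). Pde1a (31 to 102 and 54 to 136), Pde5a (23 to 73 and 38 to 94) and Pde3b (21 to 46 and 17 to 35) overlapped too, with adjusted p of 0.424, 0.579 and 0.929 (limma).

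**Figure D4:**
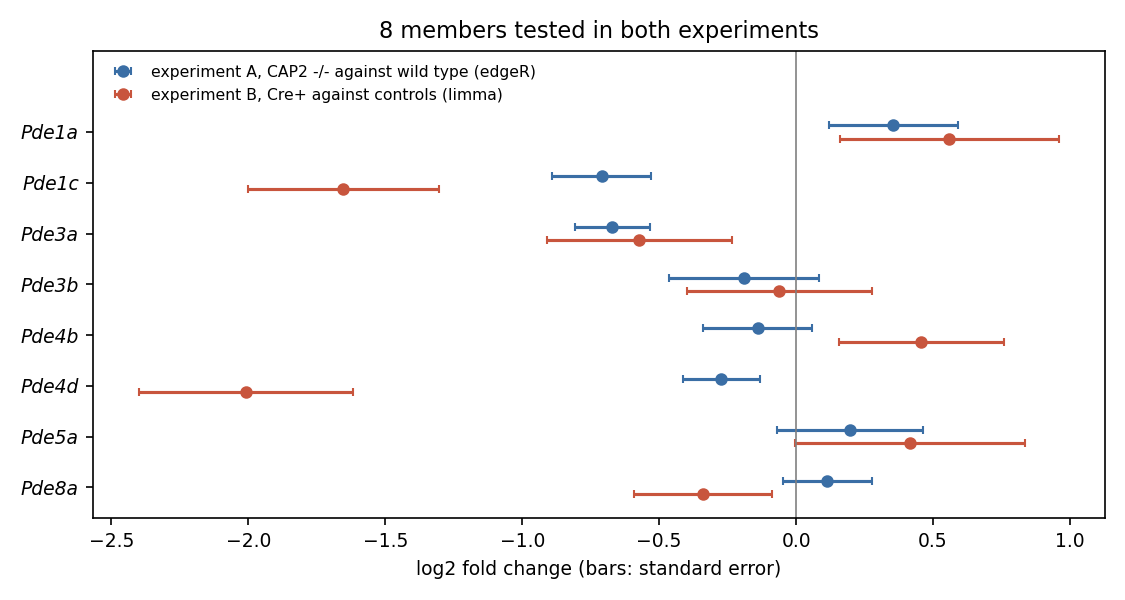
Log2 differences of the 8 members tested in both experiments, CAP2 -/- against wild type (A, edgeR) and Cre+ against controls (B, limma), with standard errors as bars. Pde1c and Pde3a lie below 0 in both experiments, and Pde4d lies at -0.27 in A and -2.01 in B.

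The experiments share no libraries but differ in age, library kit, allele and sex, so their values are only set side by side. Pde1c was lower in both, at -0.71 in A (not called) and -1.65 in B (called), and Pde3a was at -0.67 (called) and -0.57 (not called). Pde4d was at -0.27 (not called) and -2.01 (called). Whether any of these differences itself differs between the experiments was not tested. The order of levels per kilobase in the controls of experiment B was led by Pde8a at 26.1 and Pde3a at 24.2 normalized counts per kilobase, followed by Pde4d at 13.5, Pde4b at 10.7, Pde1c at 9.88, Pde1a at 9.35, Pde5a at 5.09, Pde3b at 3.16 and Pde11a at 0.269. Pde2a, at 0.228, is left out of this order because its level there is uncertain. Ranges over the 5 controls overlapped for all neighbours in this order except Pde3b and Pde11a. Exon lengths were taken from the exon rows of experiment A for A and from GENCODE M21 for B. They differ for some genes, such as Pde3a (4.205 and 12.74 kilobases), and are equal for others, such as Pde8a (4.045). Ranks in the orders of A and B are therefore not comparable.

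The other genes of the pathway were read from 5 lists, 72 genes in all. In experiment A 61 of them were tested and 1 was called, in the higher direction, against 1.35% of all genes called and 0.841% called higher, 11 had an unadjusted p under 0.05, against 10.4% of all genes, and DESeq2 called 2, against 2.36% of the genes it tested. The median log2 difference of the 61 was -0.010. The gene called was Adcy5, encoding a main adenylyl cyclase of heart muscle, which makes cAMP and is inhibited by calcium. It stood at 144, 118 and 113 CPM in wild type and at 195, 235 and 210 CPM in CAP2 -/-, with no overlap between the groups. Adcy5 rose by 0.77 on the log2 scale (standard error 0.13, adjusted p = 0.00329, edgeR) and was called in each of the 11 alternative fits. In experiment B it had 259 to 443 normalized counts in the controls and 490, 807, 881 and 677 in the Cre+ libraries. The groups did not overlap there either, as for 3.87% of all genes in this direction, but the log2 difference of 0.94 (standard error 0.25) did not pass the test (adjusted p = 0.0743, limma).

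In experiment B 58 of the 72 were tested and 2 were called, both lower, against 1.88% of all genes. At an unadjusted p under 0.05 there were 20, of which 18 were lower, against 14.2% of all genes lower at that p. Adcy6, encoding the other main adenylyl cyclase of heart muscle, had 3026, 1236, 1523, 872 and 795 normalized counts in the controls and 986, 322, 501 and 284 in the Cre+ libraries. Cre+ library 1 overlapped the controls, and the log2 difference was -1.67 (standard error 0.35, adjusted p = 0.0418, limma). Pln encodes phospholamban, the brake on the calcium pump that protein kinase A releases. It had 8324, 6098, 6017, 17020 and 7680 normalized counts in the controls and 3096, 2871, 2161 and 2922 in the Cre+ libraries, with no overlap. Pln fell by 1.53 on the log2 scale (standard error 0.30, adjusted p = 0.0333, limma). Neither gene was called with TMM scaling (adjusted p = 0.0540 for each, limma), nor without control 1, 2 or 3 or Cre+ library 2, 3 or 4, where the adjusted p ran from 0.0558 to 0.171, nor with the mitochondrial or the atrial term (0.116 to 0.788). Adcy6 was also not called without the sex term (adjusted p = 0.104, limma) or in females alone (0.0855). In experiment A both were uncalled, with log2 differences of -0.19 for Adcy6 (adjusted p = 0.700, edgeR) and -0.14 for Pln (adjusted p = 0.733, edgeR).

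The 14 remaining phosphodiesterase genes gave no call in either experiment. In experiment A 9 of them were tested with edgeR, with a median log2 difference of 0.16. Of these, 1 had an unadjusted p under 0.05, beside 10.4% of all genes. In experiment B 9 were tested with limma, with a median of -0.99 where all genes had -0.12, 8 of the 9 below 0 and 4 unadjusted p under 0.05, all lower. Of all genes tested in B, 58.5% were below 0 and 14.2% were lower at that p. The 15 anchoring and partner genes, which hold protein kinase A and phosphodiesterases in place, gave no call either. In experiment B 12 of their 13 tested members were below 0 (median -0.66), and 6 were lower with an unadjusted p under 0.05, beside the same 58.5% and 14.2% of all genes. In experiment A 6 of 13 were below 0 (median 0.02), beside 49.1% of all genes. An unadjusted p under 0.05 was found for 1 of them, beside 10.4% of all genes. The 15 effector genes (protein kinases A and G with their inhibitors, Epac and Popeye proteins) gave no call among 14 tested in each experiment. Their medians were -0.009 in A and -0.12 in B, with 2 unadjusted p under 0.05 in each. Of the listed cyclase genes, 3 of 13 tested in A and 4 of 10 in B had an unadjusted p under 0.05. Of the 12 listed substrate genes, all tested, 4 did in each experiment. Over all genes the share was 10.4% in A (edgeR) and 22.1% in B (limma).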

How the data were processed

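The members and the gene and marker lists were chosen with earlier results of these data known. The deposited experiment A values are estimated counts per gene, exon and transcript from Ion Total RNA-Seq libraries. Gene rows were rounded and tested with edgeR 4.0.16 (TMM, filterByExpr, robust quasi-likelihood) in R 4.3.3, and exon rows were merged into blocks. Standard errors given with edgeR are the size of the log2 difference divided by the square root of its F statistic. CPM are scaled to the TMM-adjusted library totals, those of exon blocks included. The deposited experiment B values are whole normalized counts from stranded TruSeq libraries, treated as a score because their normalization is not stated, so the depth is unknown. There, limma 3.58.1 (robust trend) was run on log2(value + 1) for genes averaging 10 or more, adding sex as a covariate; this scale understates changes of low genes. P-values were adjusted by Benjamini-Hochberg. Of the 16 samples, 15 have a column; the fifth Cre+ library was not analysed here.

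A mean normalized signal, log2 fold changes and p-values make up the authors' deposited table for experiment A, per the file headers. STAR 2.6.0c, DESeq and mm10 are named in the submitters' processing notes, without roles. For the counting tool, annotation and strand, nothing is given in the sources used here. Identifiers were placed with GENCODE M21 (36308 of 38087 found for A, 54079 of 54232 for B). Named are all members, called pathway genes, the 3 nearest tested genes on each side of Pde11a and the 5 genes most like it. Alternatives were DESeq2 1.42.0, other scalings, filters, pseudocounts and covariates, and leaving out each library; the tests of Pde11a in experiment B were added after seeing that it fell under the filter. The fits were tested on simulated data. That for experiment A recovered 71.1% of simulated 2-fold and 98.9% of simulated 4-fold changes. For experiment B these were 20.8% and 93.8%, so most simulated 2-fold changes were missed there. Of the calls, 8 of 171 in A and 3 of 113 in B were false. The simulation gave all genes of an experiment the same dispersion. It left out the mitochondrial genes of B and the unevenness of its libraries, so rates in the real data may differ. Replicates differed by more than sampling noise in A (chi-square per gene 11.4 to 31.0), and no 2 libraries held identical values. Each library has its own number in the labels and, in experiment B, its own sex entry, but what the numbers stand for is not said; were any libraries repeats of 1 animal, p-values would cover technical spread only.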

Additional observations from a re-analysis of the deposited data

Results flagged for a closer look

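Pde3a in experiment B was marked because 1 library stood far from its group: control 4 had 636 normalized counts, and the other 4 controls had at most 288. Of 19 groups of members examined in this way, with a gap to the nearest library of over 0.710 of the whole range asked for in groups of 5 and 0.829 in groups of 4, it was the only one, and chance marks about 1 group in 20. Control 4 also had the most Cap2 (878 normalized counts), the lowest mitochondrial share of the controls (30.4%) and the lowest atrial marker sum (109 normalized counts). Without it the log2 difference of Pde3a was -0.41 (adjusted p = 0.435, limma), against -0.57 with it.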

How the results depend on the processing

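The log2 difference of Pde11a in experiment A stayed between -4.24 and -4.04 when each library was left out and between -4.18 and -4.14 in the other fits. The number of genes called in A was 220, and 400 with DESeq2, 512 without a filter on low counts and 126 to 275 when each library was left out. Members called besides Pde11a numbered 1, and 2 with DESeq2, 2 without the filter and 0 to 2 without single libraries. Pathway genes called numbered 1, and 2 with DESeq2 and 2 without the filter. In B 228 genes were called, and 346 without the filter, 36 with the mitochondrial term, 9 with the atrial term and 39 to 695 without single libraries. Members called in B numbered 2, and 1 with TMM, 0 with the mitochondrial or the atrial term and 0 to 2 without single libraries. Pathway genes called in B numbered 2, and 0 with TMM, 1 without the sex term, 0 with the mitochondrial or the atrial term and 0 to 6 without single libraries.

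Signs turned only in members that were not called. Without single libraries the log2 difference in A ran from -0.38 to 0.0061 for Pde3b, from -0.29 to 0.044 for Pde4b and from -0.086 to 0.23 for Pde8a, and in B from -0.23 to 0.090 for Pde3b. Pde3b in B was 0.033 with TMM, 0.017 with quantile normalization and 0.019 in females alone. With the atrial term Pde1a in B was -0.15 and Pde5a -0.63. The median of all genes in B was -0.12, and -0.02 with TMM. The cause was not tested for any of these shifts.

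Replicate numbers showed no clear pairing of the libraries: deviations of same-numbered libraries correlated at -0.17, -0.12 and -0.02 in A and at 0.24, -0.11, 0.18 and 0.03 in B. So few correlations cannot exclude pairing. With the replicate number as a block 394 genes were called in B, Pde11a was at -4.16 in A, 1 other member and 1 pathway gene were called in A and 2 members and 2 pathway genes in B, and Pde3b in B was 0.068.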
